A study of Mus musculus with 8 samples.

Results

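Bidirectional promoters are stretches of DNA between a pair of genes that are transcribed away from each other. Among 21418 protein-coding promoters on chromosomes 1 to 19 of the mouse genome (mm9, GENCODE vM1), 794 pairs were found. In each, the transcription start site (TSS) of a minus-strand gene lay from 1 to 1000 bp to the left of the TSS of a plus-strand gene. The pairs held 1577 genes, or 7.36% of the protein-coding genes, and 11 genes were members of more than 1 pair. The region of a pair held both TSSs and 500 bp on each side, and 11 regions overlapped the next one. The TSSs of a pair were a median of 156.5 bp apart, with quartiles of 80.25 and 301.75 bp. At the limits of the rule, Tubgcp2/Zfp511 had a distance of 1 bp, Btf3l4/Txndc12 and Pdzd7/Sfxn3 had 987 bp, and Atg14/Gm6616 fell outside with 1008 bp. CpG-rich promoters (HCPs) contain an interval of 500 bp with at least 55% G+C and a CpG observed to expected ratio of at least 0.6. Both promoters were CpG-rich in 750 pairs (94.5%) and neither in 37, whereas 54.7% of all promoters were CpG-rich. The comparison set was 8081 one-way CpG-rich promoters, which had no TSS of another gene within 2 kb and were given regions of 1157 bp, extended upstream by 156 bp.

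The marks were mapped in tumor isografts of Lewis lung carcinoma cells, grown under the skin of female C57BL/6J mice aged 6 to 8 weeks to about 500 mm3. LLC-NR tumors respond to VEGF-Trap, an inhibitor of VEGF. LLC-R cells were derived from LLC through 5 rounds of selection in mice under VEGF-Trap, and neither the labels nor the methods give VEGF-Trap to the isografts that were profiled. Each line was inoculated into 10 mice, and there was 1 library for H3K4me3, H3K9ac, H3K27me3 and H3K36me3 in each line, 8 in all, whose number of tumors is not given. There were thus no replicates, no input library was used here, and no test between the lines or over regions is given. The tumors also hold cells of the host, so fewer cells carrying a mark and less of the mark per cell cannot be told apart. The deposited peaks are positions of single nucleosomes, all 147 bp wide and without height or read count, and no peak overlaps another of its library. A level below is the number of peaks whose midpoint lies in a region, per kb, and the room for nucleosomes limits it. Libraries held from 5660458 to 9101721 peaks, which covered 33.2% to 53.0% of chromosomes 1 to 19.

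In divergent pairs, RNA polymerase II starts in opposite directions from a shared, nucleosome-depleted stretch, and the first nucleosome of each gene lies just inside it. H3K4me3 and H3K9ac mark nucleosomes near active starts, H3K27me3 is placed by Polycomb complexes at silenced genes, and H3K36me3 follows elongating polymerase through gene bodies. Such pairs are known to be rich in CpG and poor in TATA boxes, and to include many genes of DNA repair and metabolism.

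The DNA between the TSSs is shown for 8 pairs that are described below, to let the short stretch that lies between both starts be seen. Both promoters were CpG-rich in each of them except Wrap53/Trp53, where neither was. Each runs 5′ to 3′ on the plus strand of mm9 from the base after the minus-strand TSS to the base before the plus-strand TSS, and none of it overlaps an annotated exon. The stretches lie at chr2:26772051-26772188 (Surf1/Surf2), chr11:69393758-69393860 (Wrap53/Trp53), chr7:29766884-29767072 (Eif3k/Map4k1), chr8:72826389-72826416 (Ddx49/Cope), chr9:108208283-108208535 (Tcta/Rhoa), chr19:5688909-5689130 (Pcnxl3/Map3k11), chr12:70285071-70285144 (Rpl36al/Mgat2) and chr6:119798169-119798210 (Erc1/3110021A11Rik). Capitals mark matches on either strand to the motifs counted further on, which are spelled out there.
Surf1/Surf2: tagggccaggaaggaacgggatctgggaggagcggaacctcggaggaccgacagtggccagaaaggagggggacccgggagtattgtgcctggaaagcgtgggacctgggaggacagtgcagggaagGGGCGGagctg
Wrap53/Trp53: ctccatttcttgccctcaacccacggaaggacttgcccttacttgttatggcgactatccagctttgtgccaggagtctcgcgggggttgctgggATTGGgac
Eif3k/Map4k1: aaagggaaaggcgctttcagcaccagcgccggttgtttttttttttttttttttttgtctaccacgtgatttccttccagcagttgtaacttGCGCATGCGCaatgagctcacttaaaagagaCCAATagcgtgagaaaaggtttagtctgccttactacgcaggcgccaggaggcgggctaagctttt
Ddx49/Cope: ctacgtcacgtccaccccggcgcagtcc
Tcta/Rhoa: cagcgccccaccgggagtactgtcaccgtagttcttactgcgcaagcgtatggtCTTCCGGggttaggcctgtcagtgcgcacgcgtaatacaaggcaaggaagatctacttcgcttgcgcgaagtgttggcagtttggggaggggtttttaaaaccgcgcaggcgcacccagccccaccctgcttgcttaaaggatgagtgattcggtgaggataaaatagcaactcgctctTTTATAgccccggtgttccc
Pcnxl3/Map3k11: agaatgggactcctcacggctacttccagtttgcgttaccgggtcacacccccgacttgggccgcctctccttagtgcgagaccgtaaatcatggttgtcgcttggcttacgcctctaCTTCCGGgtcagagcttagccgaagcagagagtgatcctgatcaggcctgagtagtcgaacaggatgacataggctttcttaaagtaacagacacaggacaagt
Rpl36al/Mgat2: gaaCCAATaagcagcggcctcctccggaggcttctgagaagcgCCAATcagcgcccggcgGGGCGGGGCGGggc
Erc1/3110021A11Rik: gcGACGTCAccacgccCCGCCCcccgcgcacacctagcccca

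By their means, pairs carried fewer H3K27me3 peaks per kb than one-way promoters in both lines, and slightly more H3K4me3 and H3K9ac peaks. H3K27me3 was at 2.72 ± 1.10 peaks per kb (SD over 794 regions) in LLC-NR pairs, against 3.24 ± 1.14 in one-way promoters. In LLC-R it was at 3.33 ± 1.03 in pairs and 3.76 ± 0.988 in one-way promoters, so the difference was -0.517 peaks per kb in LLC-NR and -0.433 in LLC-R. H3K4me3 was at 4.31 ± 0.900 in LLC-NR pairs and 3.94 ± 0.922 in LLC-R pairs, which is 0.241 and 0.141 above the one-way promoters of the same library. H3K9ac was at 4.03 ± 0.899 and 3.58 ± 0.935 in pairs, 0.258 and 0.204 above. H3K36me3 was at 1.93 ± 1.04 in LLC-NR pairs and 3.25 ± 0.969 in LLC-R pairs, 0.139 and 0.110 above. All of these differences were smaller than the spread between regions, from 0.109 to 0.456 of the SD of the one-way promoters. Medians went the other way for H3K27me3 in LLC-R, with 3.49 in pairs against 3.46. They also did so for H3K9ac in LLC-NR (4.01 against 4.32) and H3K36me3 in LLC-R (3.37 against 3.46). One-way regions all have the same length, so their medians take few values. With 250 bp in place of 500 bp on each side, H3K4me3 in LLC-R (-0.079) and H3K36me3 (-0.0025 in LLC-NR and -0.027 in LLC-R) turned to below the one-way promoters, and H3K4me3 in LLC-NR (0.032) and H3K9ac in LLC-R (0.028) shrank.

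**Figure D1:**
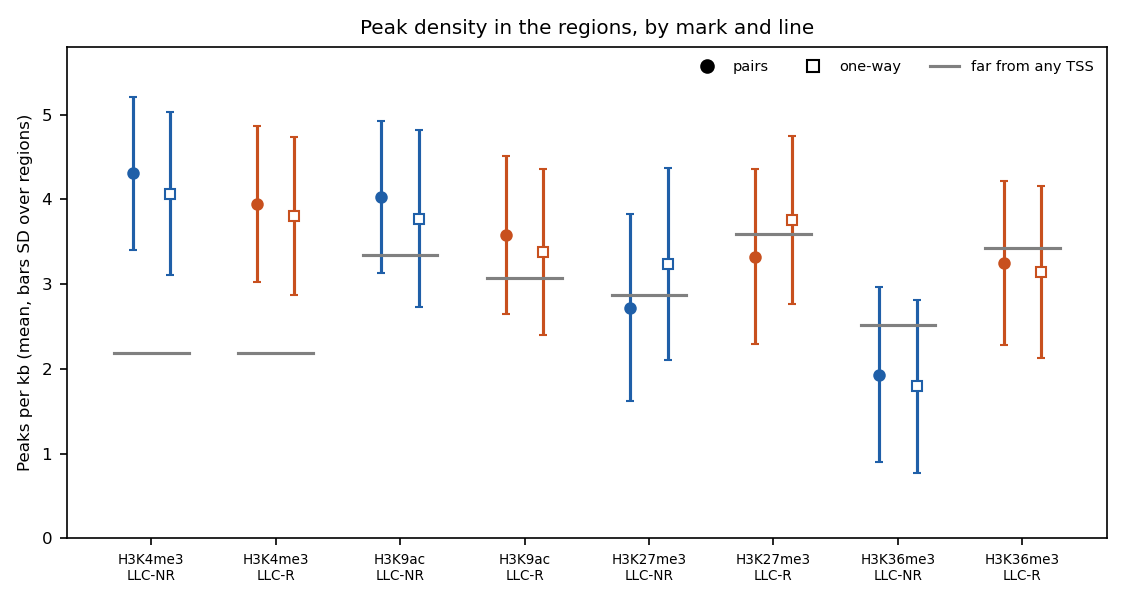
Mean number of peaks per kb in the 794 pairs (filled circles) and the 8081 one-way CpG-rich promoters (open squares) for each mark and line, LLC-NR in blue and LLC-R in orange. Bars are the SD over regions, and grey lines give the mean of windows that lie 5 kb or more from every TSS. H3K27me3 is the mark whose mean lies lower in pairs in both lines, and H3K4me3 the one farthest above the grey line.

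Relative to 1.5-kb windows lying 5 kb or more from every TSS, H3K4me3 in pairs was at 1.97-fold in LLC-NR and at 1.80-fold for LLC-R. H3K9ac was at 1.21-fold and 1.17-fold, H3K27me3 at 0.948-fold and 0.927-fold, and H3K36me3 at 0.769-fold and 0.947-fold. One-way promoters differed in side of the background for H3K27me3, with 1.13-fold and 1.05-fold. The order of the marks in the pairs was thus the same in both lines for H3K4me3 and H3K9ac, while H3K27me3 and H3K36me3 exchanged places.

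The counts of single regions show how the difference in H3K27me3 was made up. The 222 pairs with a distance above 100 and up to 200 bp have regions about as long as the one-way regions, a subset chosen after seeing the data. In LLC-NR, 11.3% of them (exact 95% interval 7.42% to 16.2%) held no more than 1 H3K27me3 peak, against 4.93% of one-way promoters, and 3.15% (1.28% to 6.39%) held 6 or more, against 7.29%. In LLC-R, no more than 1 peak was found in 3.15% of these pairs and 1.66% of one-way promoters, and 2 or 3 peaks in 35.1% (28.9% to 41.8%) and 18.4%. The intervals here and below cover counting error only. For H3K4me3 in LLC-NR the shift was at both ends. Of these pairs 30.6% (24.6% to 37.1%) held 6 or more peaks, against 22.3% of one-way promoters, and 4.50% (2.18% to 8.13%) held 2 or 3, against 9.88%. In LLC-R the shares with 6 or more were 14.0% (9.69% to 19.2%) and 12.7%, a difference within the counting interval. The H3K36me3 difference of LLC-R was -0.00012 peaks per kb in these pairs.

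Pairs and one-way promoters were alike in base composition, with 67.6 ± 22.4 and 64.7 ± 23.7 CpG per kb (SD over regions) and 59.6% and 59.3% G+C. Within each tertile of CpG content, H3K27me3 stayed lower in pairs, with differences of -0.559 to -0.502 peaks per kb in LLC-NR and -0.515 to -0.344 in LLC-R. H3K4me3 and H3K9ac stayed higher in every tertile of both lines, and the H3K9ac difference in LLC-NR was 0.391 in the CpG-richest tertile and 0.202 and 0.206 in the others. H3K36me3 in LLC-R was lower in pairs in the CpG-poorest tertile (-0.021) and higher by 0.338 in the richest. H3K4me3 was lower in more distant pairs, by less than the spread between regions. It was at 4.41 ± 0.822 peaks per kb in the 261 pairs at 1 to 100 bp and 4.18 ± 0.806 in the 93 pairs beyond 500 bp in LLC-NR, and at 4.12 ± 0.898 and 3.70 ± 0.899 in LLC-R, where the most distant pairs were below the one-way mean of 3.80. H3K9ac in LLC-NR was at 4.13 in the closest pairs and between 3.94 and 4.03 in the other 4 classes, without an order by distance, and in LLC-R at 3.79 and between 3.41 and 3.53. H3K27me3 lay between 2.52 and 2.83 in LLC-NR and between 3.27 and 3.39 in LLC-R over all 5 classes of distance, each below its one-way mean. The 37 pairs without a CpG-rich promoter had less H3K4me3, at 3.39 ± 1.57 in LLC-NR against 4.36 ± 0.831 in the 750 CpG-rich pairs, and at 3.29 ± 1.53 against 3.98 ± 0.869 in LLC-R.

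Around the TSSs, the peaks of pairs formed a phased array into each gene, with the first nucleosome at +120 to +139 bp in 7 of 8 libraries and at +140 to +159 bp for H3K36me3 in LLC-R. The density of midpoints in that 20-bp bin was 8.85 per kb for H3K4me3 in LLC-NR and 7.81 in LLC-R, against 8.23 and 7.29 in one-way promoters. For H3K9ac, pairs reached 8.03 in LLC-NR and 7.18 in LLC-R, against 6.32 and 5.45. H3K36me3 was higher at the first nucleosome of pairs as well, with 3.21 against 2.13 in LLC-NR and, from +140 to +159 bp, 5.79 against 3.88 in LLC-R. H3K27me3 in the bin from +120 bp was lower in LLC-NR pairs (5.01 against 5.56) and higher in LLC-R pairs (5.64 against 4.85), but in the bin before it pairs of LLC-R were lower (4.69 against 5.06). Over the wider stretch from +50 to +200 bp, the share of TSSs with an H3K27me3 midpoint was lower in pairs of both lines, at 55.04% against 62.6% in LLC-NR and 61.7% against 64.2% in LLC-R. A second maximum followed between +280 and +319 bp in all 8 libraries, at 7.18 per kb for H3K4me3 and 6.64 for H3K9ac in LLC-NR. The lowest bin near the TSS was emptier in pairs than in one-way promoters in every library, for example 1.10 against 1.69 per kb for H3K9ac in LLC-R and 1.16 against 2.18 for H3K27me3 in LLC-NR. The highest bin of the first nucleosome, taken for each set by itself, exceeded this lowest bin by 2.93 to 6.51 times in pairs and by 1.89 to 3.26 times in one-way promoters. By these extreme bins, the contrast between the depleted stretch and the first nucleosome was larger in pairs for all 4 marks and both lines. Bins of pairs rest on 1588 TSSs and those of one-way promoters on 8081, so extreme bins vary more in pairs. The part of this in the contrast was not tested.

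**Figure D2:**
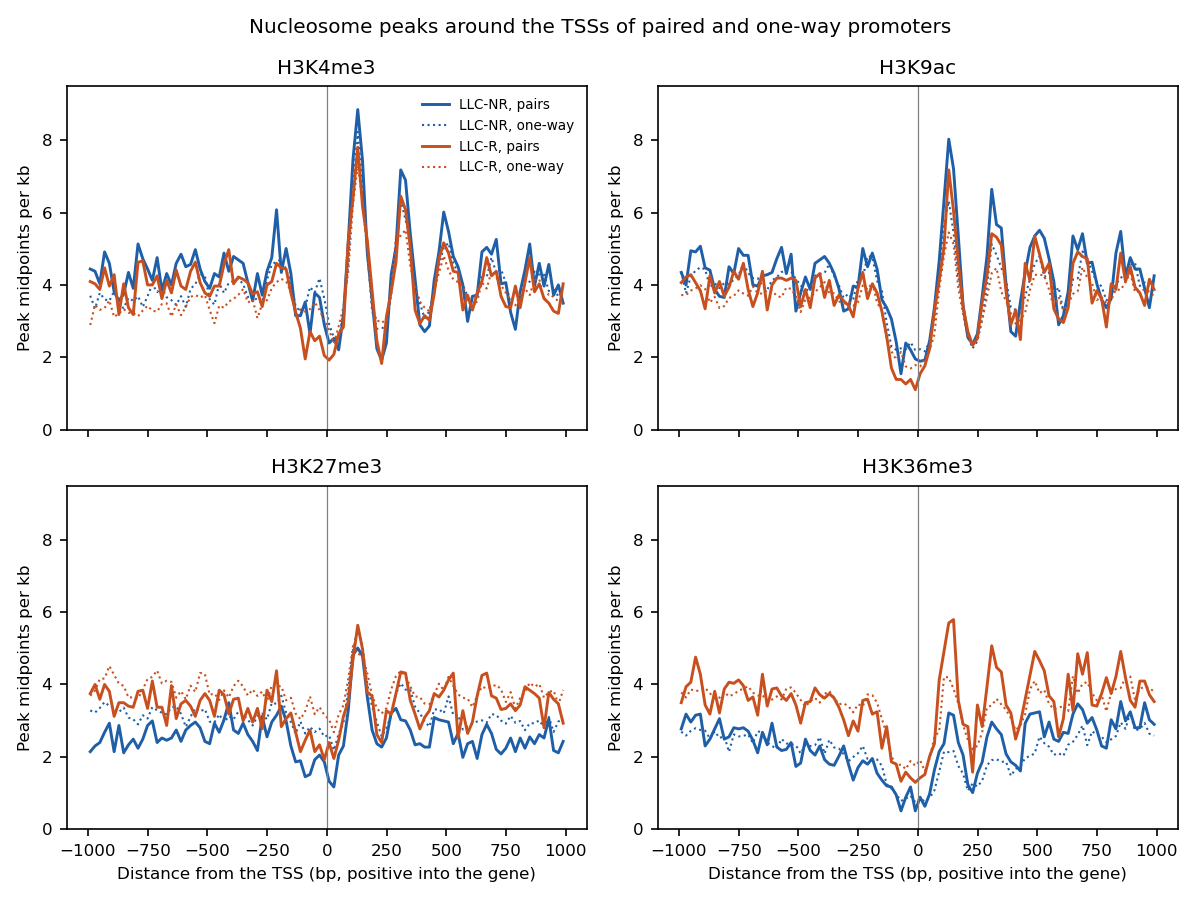
Density of peak midpoints per kb in 20-bp bins around the TSSs of pairs (solid) and of one-way promoters (dotted), each TSS in the direction of its gene, for LLC-NR (blue) and LLC-R (orange). The peak just past +120 bp and the one near +300 bp are the first and second nucleosomes of the gene. The solid lines of H3K9ac and H3K36me3 rise above the dotted ones there and dip below them at the TSS.

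Between the TSSs themselves, many pairs held no midpoint of a given mark. H3K36me3 was absent from the gap in 634 of 794 pairs in LLC-NR (79.8%, interval 76.9% to 82.6%) and 66.8% in LLC-R. The share was 65.7% and 57.4% for H3K27me3, 55.3% and 66.8% for H3K9ac, and 42.8% and 54.5% for H3K4me3, the mark found most often in the gap. Counting any overlap of a peak with the gap lowered all 8 shares, to between 25.3% and 69.0%.

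An equal distance upstream of one-way TSSs was empty less often in most classes. The exceptions were all in LLC-NR, for H3K36me3 up to 100 bp and for H3K4me3 and H3K9ac above 300 bp. Above 100 and up to 200 bp, H3K4me3 was missing from 46.8% of gaps against 46.1% in LLC-NR. In LLC-R it was missing from 64.0% against 51.6%. The next longer class, given in detail here, had some of the widest differences. Above 200 and up to 300 bp, the 111 gaps were without H3K27me3 in 63.1% (53.4% to 72.0%) in LLC-NR, against 33.7% of the same stretches at one-way promoters, and in 37.8% (28.8% to 47.5%) against 24.4% in LLC-R. H3K9ac was missing from 58.6% (48.8% to 67.8%) of them in LLC-R, against 37.2%, and from 45.0% (35.6% to 54.8%) against 29.2% in LLC-NR. H3K4me3 differed in LLC-R, with 42.3% (33.0% to 52.1%) against 22.1%, whereas the value in LLC-NR, 22.5% (15.1% to 31.4%) against 16.3%, had the one-way share inside its counting interval. Beyond 500 bp few gaps were empty, with 1.08% and 6.45% for H3K4me3 and 36.6% and 6.45% for H3K36me3 in LLC-NR and LLC-R. Over all 8 libraries together, 124 of the 261 gaps up to 100 bp (47.5%) held no midpoint of any mark, as did 34 of the 222 from there to 200 bp and 1 of the 93 beyond 500 bp. A midpoint in every library was found in 49 of those 93 gaps, 15 of the 107 between 300 and 500 bp, 4 of the 111 between 200 and 300 bp and 0 of the shorter ones. These numbers over all libraries are not given for one-way promoters, where short stretches were often empty as well. Up to 100 bp, H3K4me3 in LLC-NR was missing from 78.5% of gaps and 77.6% of one-way stretches. In LLC-R the shares were 86.2% and 81.0%.

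**Figure D3:**
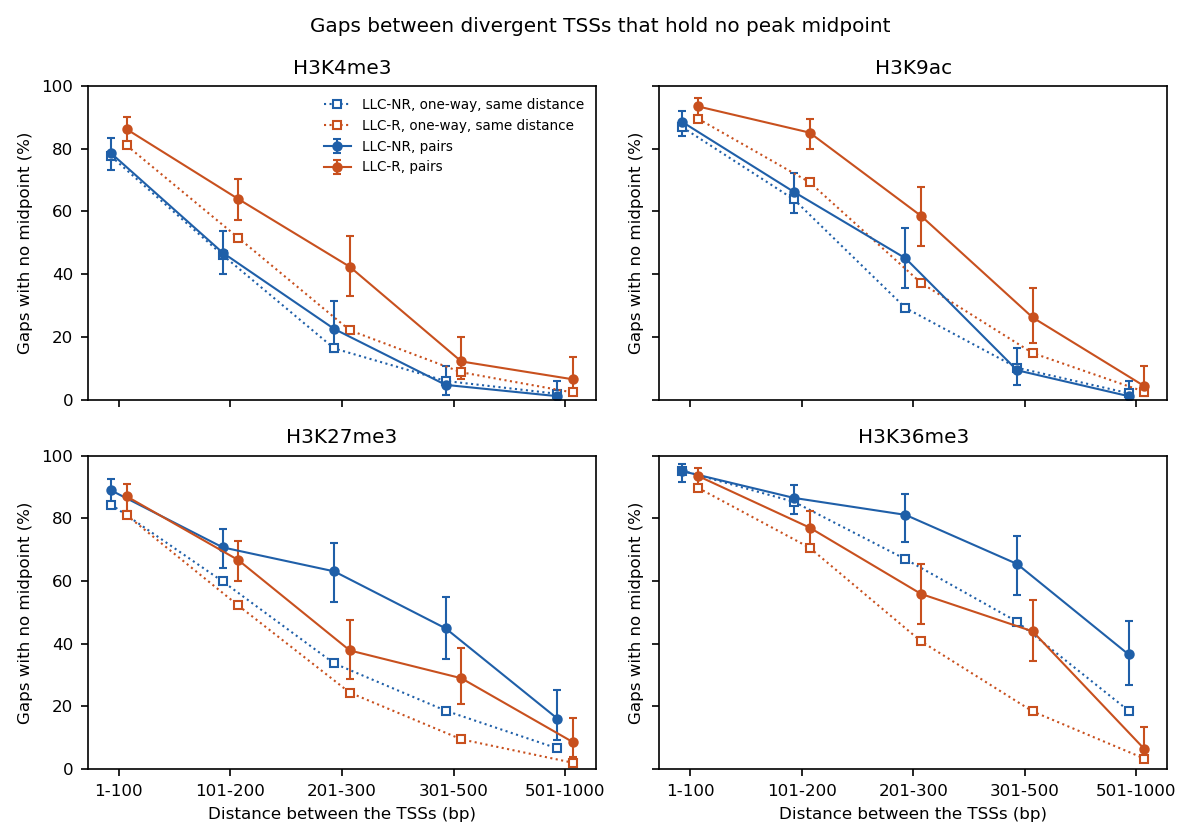
Percentage of gaps between divergent TSSs without a peak midpoint, by the distance between the TSSs, for pairs (filled, with exact 95% intervals) and for the same distances upstream of one-way TSSs (open), LLC-NR in blue and LLC-R in orange. The curves of pairs lie above those of one-way promoters for H3K27me3 and H3K36me3 between 200 and 500 bp in both lines.

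The stretch between neighbouring midpoints that spans the middle of the gap had a median of 277 bp for H3K4me3 in LLC-NR and 315 bp in LLC-R. At the same place in one-way promoters it was 268 and 290 bp. By distance between the TSSs, the medians of this stretch ranged least for H3K4me3, from 243 to 288 bp in LLC-NR and from 297 to 343 bp in LLC-R. They ranged from 247 to 329 bp and from 304 to 446 bp for H3K9ac, from 376 to 517 bp and from 338 to 409 bp for H3K27me3, and from 670 to 916 bp and from 347 to 471 bp for H3K36me3. In all 8 libraries the longest median was found in a class above 200 and up to 500 bp, though for H3K9ac in LLC-NR it was 329 bp there against 328 bp in a shorter class. H3K27me3 left longer stretches free in pairs, with 433.5 bp against 339 bp in LLC-NR and 354 bp against 294 bp in LLC-R. H3K36me3 left 763 bp free in LLC-NR and 422 bp in LLC-R, close to the 796 and 404 bp of one-way promoters. The H3K36me3 library of LLC-R had more peaks (8747519) than that of LLC-NR (6432447), and the part of this in the shorter stretch was not tested.

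The sides of a pair, 500 bp into each gene, carried almost the same mean number of peaks. H3K4me3 was at 2.23 ± 0.620 peaks (SD over pairs) on the minus-strand side and 2.21 ± 0.626 on the plus-strand side in LLC-NR, and at 2.08 ± 0.652 and 2.06 ± 0.669 in LLC-R. One-way promoters had 2.15 downstream and 1.96 upstream in LLC-NR, with 2.09 downstream and 1.76 upstream for LLC-R, so that a pair side exceeded the upstream side of one-way promoters by 0.263 and 0.311 peaks. Against the downstream side it differed by 0.0666 in LLC-NR and by -0.0194 in LLC-R. The upstream side of one-way promoters starts at the TSS and takes in the depleted stretch, whereas pair sides leave the gap out. The part of this in the differences from the upstream side was not tested. H3K9ac on pair sides was above both sides of one-way promoters, with a mean of 2.13 in LLC-NR against 1.89 downstream and 1.82 upstream, and of 1.94 in LLC-R against 1.72 and 1.60. H3K27me3 was below both, with 1.44 against 1.73 and 1.52 in LLC-NR, and 1.74 against 1.91 and 1.82 in LLC-R. H3K36me3 was above both in each line, at 1.05 against 0.801 and 0.901 in LLC-NR and 1.75 against 1.52 and 1.53 in LLC-R.

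Within single pairs, the sides held the same number of H3K4me3 peaks in 409 of 794 pairs in LLC-NR (51.5%) and in 46.1% in LLC-R, while both sides of one-way promoters were equal in 43.2% and 41.9%. Only 3.65% and 6.68% of pairs differed by 2 peaks or more, against 9.64% and 13.1%. For H3K9ac the shares were 5.67% and 6.17%, against 11.1% and 12.9%. The other marks did not share this pattern in both lines. H3K27me3 was equal in 40.6% of pairs against 37.8% of one-way promoters in LLC-NR, but in 39.8% against 40.9% in LLC-R. H3K36me3 differed by 2 peaks or more in 15.2% of pairs against 13.1% in LLC-NR, and in 10.3% against 14.4% in LLC-R. In all of these shares the upstream side of one-way promoters takes in the depleted stretch, and the part of this was not tested. A first nucleosome, taken as a midpoint from +50 to +200 bp, carried H3K4me3 on both sides in 71.2% of pairs (67.9% to 74.3%) in LLC-NR and 63.2% (59.8% to 66.6%) in LLC-R. For H3K9ac it did so in 64.1% and 51.0%, for H3K27me3 in 31.1% and 39.8%, and for H3K36me3 in 13.9% and 38.3%. Across pairs the H3K4me3 numbers of both sides were related only weakly, with a Spearman correlation of 0.14 in LLC-NR and 0.081 in LLC-R (n = 794, sparse counts from the same library), against 0.024 and -0.016 between the sides of one-way promoters.

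Further into the genes, from 0.5 to 3 kb, H3K36me3 was at 3.29 ± 0.849 peaks per kb (SD over 1588 gene sides) in LLC-NR pairs and 4.04 ± 0.679 in LLC-R pairs. One-way genes had 3.07 ± 0.877 and 3.96 ± 0.676, and the same stretch upstream of them 2.68 ± 0.839 and 3.79 ± 0.696. Pair genes thus exceeded one-way genes by 0.215 in LLC-NR and 0.0752 in LLC-R, less than the spread between genes. The genes on the minus and plus strands were close to each other, at 3.26 and 3.31 in LLC-NR, while those of LLC-R were at 4.05 and 4.02. H3K27me3 in the same stretch was at 2.41 ± 0.971 in LLC-NR pairs against 2.87 ± 1.05 in one-way genes, and at 3.63 ± 0.738 against 3.82 ± 0.734 in LLC-R. The low H3K27me3 of pairs therefore went beyond the 500 bp around the TSSs.

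Short sequence motifs were counted on both strands in 250 bp on each side of the middle of the gap. One-way promoters were searched at the same place, and none of the 7 motifs contains another. In the 701 pairs with TSSs up to 500 bp apart, this window holds the TSSs of both genes. In one-way promoters it holds the TSS of a single gene, and the part of this in the motif shares was not tested. CCGGAAG, the core bound by ETS factors, was found in 282 pairs (35.5%, interval 32.2% to 39.0%) and in 19.5% of one-way promoters, against 1.26% of stretches of the same length far from TSSs. The difference held in each tertile of CpG content, with 25.8%, 41.2% and 35.7% of pairs from the poorest to the richest and 19.4%, 21.9% and 17.3% of one-way promoters. AAGATGG, the core of the YY1 motif, was found in 15.1% (12.7% to 17.8%) and 10.3%, GCGCATG, part of the NRF1 motif, in 11.6% (9.44% to 14.0%) and 8.71%, and TGACGTC, a CREB motif, in 9.57% (7.62% to 11.8%) and 6.69%. In the CpG-poorest tertile the order for TGACGTC was the opposite, with 3.30% (1.22% to 7.04%) of pairs and 5.86% of one-way promoters. CCAAT, bound by NF-Y, was found in 49.6% and 45.1%. The TATA box TATAAA was found in 7.05% (5.37% to 9.06%) of pairs and 9.60% of one-way promoters, and GGGCGG, bound by SP1, in 78.6% and 80.7%. In the CpG-poorest tertile TATAAA was equally frequent in both sets, at 13.7%. In the printed sequences, CCGGAAG stands in Tcta/Rhoa and Pcnxl3/Map3k11, and Rpl36al/Mgat2 holds CCAAT and GGGCGG 2 times each. Pairs with CCGGAAG had slightly more H3K4me3 than pairs without it, at 4.42 ± 0.872 against 4.25 ± 0.910 peaks per kb in LLC-NR and 4.06 ± 0.889 against 3.88 ± 0.934 in LLC-R. Their TSSs were also closer, with a median distance of 126.5 bp against 175 bp, and its part in this was not tested. Not every motif was rarer in stretches far from TSSs. The YY1 core was found in 12.5% of these stretches, more than in one-way promoters and less than in pairs. The NF-Y motif was found in 58.2% of them and the TATA box in 41.5%, more than in pairs or one-way promoters. The shares there were 3.96% for the SP1 motif, 1.14% for the NRF1 motif and 0.768% for the CREB motif.

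Some families were found in pairs more often than the 7.36% of all protein-coding genes. Of 106 listed genes of DNA repair and replication, 28 were in a pair (26.4%, interval 18.3% to 35.9%). They include the mismatch repair gene Pms2, the nucleotide excision repair genes Xpc, Ddb1 and Ercc8, the Fanconi anemia genes Fancd2 and Palb2, the checkpoint kinases Atm and Chek2, and Lig4 of end joining. Of 191 genes of the mitochondrial ribosome, respiratory chain and import, 43 were in pairs (22.5%, 16.8% to 29.1%), and in Sdhd/Timm8b both partners were on the list. Replication-dependent histone genes were in pairs in 27 of 67 cases (40.3%, 28.5% to 53.0%), with 13 pairs made of histone genes on both sides, most of them an H2A and an H2B gene. Proteasome subunits (6 of 46) and cytosolic ribosomal proteins (10 of 72) had intervals reaching down to 4.94% and 6.87%. Zinc finger genes named Zfp were in pairs in 18 of 365 cases (4.93%, 2.95% to 7.68%). In 94.5% of pairs both promoters were CpG-rich, against 54.7% of all promoters, and the 7.36% covers genes with any promoter. The share in pairs among CpG-rich genes alone is thus higher, and it is not given here. The part of CpG content in the shares of the lists was not tested, and the lists were not tested for enrichment.

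The pairs of DNA repair genes resembled pairs in general, with medians of 4.72 H3K4me3 peaks per kb in LLC-NR and 3.90 in LLC-R, against 4.40 and 3.91 over all pairs. Their H3K27me3 medians were 2.66 and 3.50, against 2.75 and 3.49. The 14 pairs with a histone gene had less of every mark, with H3K4me3 medians of 3.40 and 2.75, H3K27me3 medians of 0.813 and 1.65, and H3K36me3 medians of 0 and 1.63. Histone genes include near-identical copies and only uniquely mapped reads entered the peaks, which makes their numbers uncertain, and 2 of the 13 histone pairs held no peak in any library. In all, 6 pairs (0.756%) and 0.507% of one-way promoters held none. Ribosomal protein pairs had the highest H3K36me3 of the lists in LLC-R, with a median of 4.06 against 3.37 over all pairs.

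Of 16 pairs listed from textbook knowledge, 7 met the rule. Peak numbers of single pairs, here and below, are not scaled by library peaks. In LLC-NR and LLC-R, Surf1/Surf2, which includes a cytochrome c oxidase assembly factor, held 5 and 6 H3K4me3, 5 and 5 H3K9ac, 2 and 6 H3K27me3, and 4 and 4 H3K36me3 peaks. Brca1/Nbr1, which joins a homologous recombination gene to an autophagy receptor across 903 bp, held 9 and 7 H3K4me3, 9 and 7 H3K9ac, 0 and 6 H3K27me3, and 4 and 7 H3K36me3 peaks. Both pairs had the larger unscaled H3K27me3 number in LLC-R, and Brca1/Nbr1 had none of this mark in LLC-NR. The H3K27me3 libraries held 9101721 peaks in LLC-R and 7245090 in LLC-NR, and those of H3K36me3 held 8747519 and 6432447. The part of this in the numbers of single pairs was not tested.

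Mcm4/Prkdc, a subunit of the replicative helicase beside the catalytic subunit of DNA-PK, held 4 and 5 H3K4me3, 7 and 5 H3K9ac, 2 and 5 H3K27me3, and 3 and 4 H3K36me3 peaks. Sirt3/Psmd13, a mitochondrial deacetylase beside a proteasome subunit, held 7 and 6, 6 and 6, 3 and 5, and 5 and 5 in the same order of marks. Fen1/1810006K21Rik, a flap endonuclease gene beside the gene that RefSeq names Tmem258, held 6 and 4, 5 and 4, 2 and 2, and 4 and 4. In these 3 pairs the only difference of more than 2 peaks was that of H3K27me3 at Mcm4/Prkdc.

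Of 113 genes listed as downregulated in LLC-R, 8 were in pairs (7.08%, 3.11% to 13.5%), and of 6 listed as upregulated 0 were. Both lists come from the study, which set expression from earlier work of its authors beside the histone marks profiled here. They are thus not independent evidence. In the same order of marks, Atm/Npat, a DNA damage kinase beside a coactivator of histone genes, held 5 and 6, 5 and 4, 3 and 3, and 1 and 4 peaks. Wrap53/Trp53, a telomerase cofactor beside p53, held 5 and 5 H3K4me3, 6 and 6 H3K9ac, 2 and 3 H3K27me3, and 2 and 5 H3K36me3 peaks. Both pairs kept their active marks within 1 peak and had 3 more H3K36me3 peaks in LLC-R.

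Tcta/Rhoa, whose right gene encodes a small GTPase of the cytoskeleton, held 7 and 6 H3K4me3, 6 and 3 H3K9ac, 2 and 4 H3K27me3, and 2 and 6 H3K36me3 peaks. Csnk2b/Gpank1, with the regulatory subunit of casein kinase 2 on the left, held 7 and 5, 7 and 7, 3 and 5, and 5 and 5 in the same order. Tcta/Rhoa had the largest H3K9ac difference of the 8 pairs, and the others lay within 1 peak of no change in this mark.

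Eif3k/Map4k1, a translation initiation factor subunit beside a kinase of blood cells, held 5 and 4 H3K4me3, 5 and 4 H3K9ac, 1 and 2 H3K27me3, and 2 and 4 H3K36me3 peaks. Ddx49/Cope, an RNA helicase beside a COPI coat subunit, held 4 and 4, 5 and 4, 2 and 3, and 3 and 5 in the same order. Pcnxl3/Map3k11, with a mixed lineage kinase on the right, held 5 and 5, 5 and 5, 4 and 2, and 3 and 4. Without scaling, Pcnxl3/Map3k11 was the only one of the 8 with fewer H3K27me3 peaks in LLC-R, where 6 had more and 1 the same number. The medians over the 8 pairs were 4.14 and 4.30 H3K4me3, 4.14 and 3.52 H3K9ac, 1.88 and 2.67 H3K27me3, and 2.13 and 3.31 H3K36me3 peaks per kb in LLC-NR and LLC-R.

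**Figure D4:**
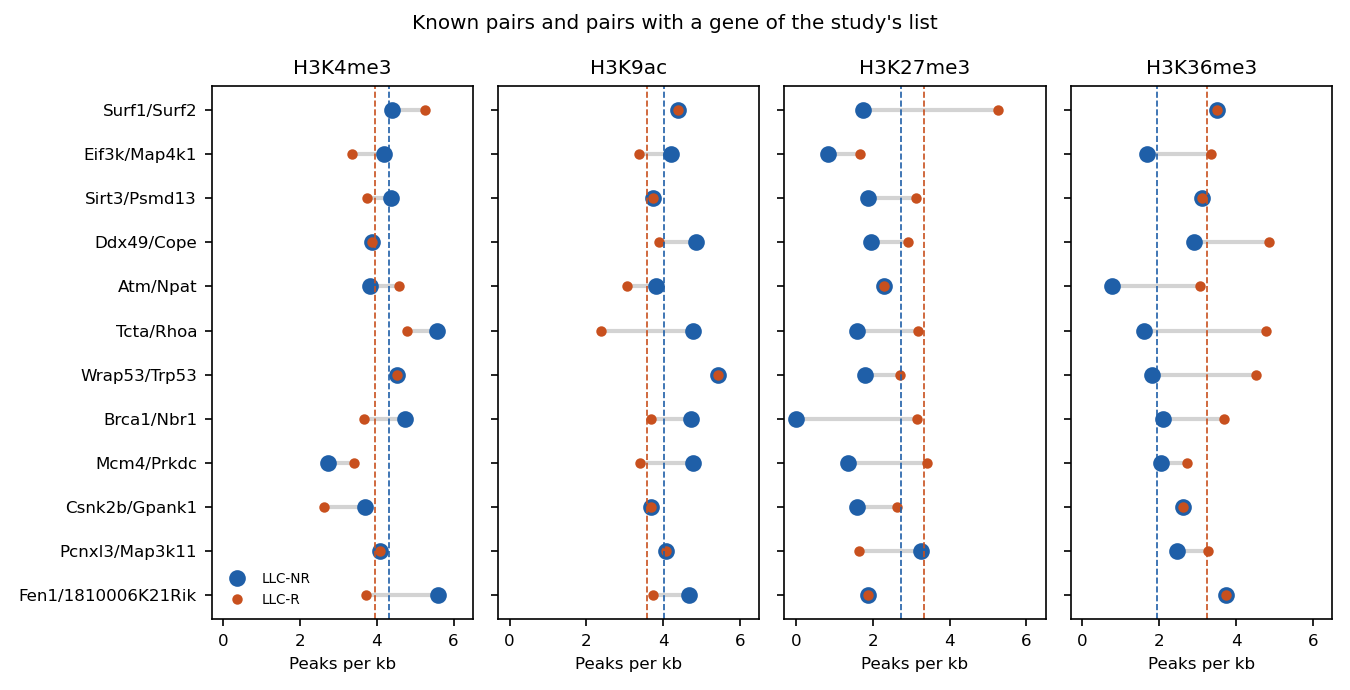
Peaks per kb in LLC-NR (large blue points) and LLC-R (small orange points) for the textbook pairs and the named pairs with a gene of the study's list, 1 row per pair and 1 panel per mark. Dashed lines are the means over all 794 pairs, and grey bars join both lines. Most pairs move to the right in H3K27me3 and H3K36me3, and Brca1/Nbr1 starts at 0 H3K27me3 in LLC-NR. Values are not scaled by library peaks, and the LLC-R libraries of H3K27me3 and H3K36me3 held more peaks than those of LLC-NR.

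Across all pairs, the lines differed little in H3K4me3, H3K9ac and H3K27me3 when scaled by the number of peaks in each library. Scaling by reads gave larger differences for H3K9ac and H3K27me3. In pairs, the log2 ratio of LLC-R over LLC-NR, scaled by library peaks, was -0.12 for H3K4me3 (counting interval -0.19 to -0.06), -0.05 for H3K9ac (-0.11 to 0.02), -0.04 for H3K27me3 (-0.12 to 0.03) and 0.31 for H3K36me3 (0.22 to 0.39). One-way promoters gave -0.09, -0.04, -0.11 and 0.37, and the largest difference between both sets, for H3K27me3, was 0.07. Windows far from TSSs stayed within 0.01 of 0 under this scaling. Scaled by uniquely mapped reads, the ratios of pairs became 0.14, 0.64, -0.81 and -0.46, so the direction turned for H3K4me3, H3K9ac and H3K36me3. The study lists more uniquely mapped reads in LLC-R for H3K27me3 and H3K36me3, and more in LLC-NR for H3K4me3 and H3K9ac. The part of read depth in the ratios was not tested under either scaling. By chromosome, the H3K4me3 ratio was below 0 on all 19, and H3K36me3 lay between 0.08 on chromosome 6 and 0.62 on chromosome 5.

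**Figure D5:**
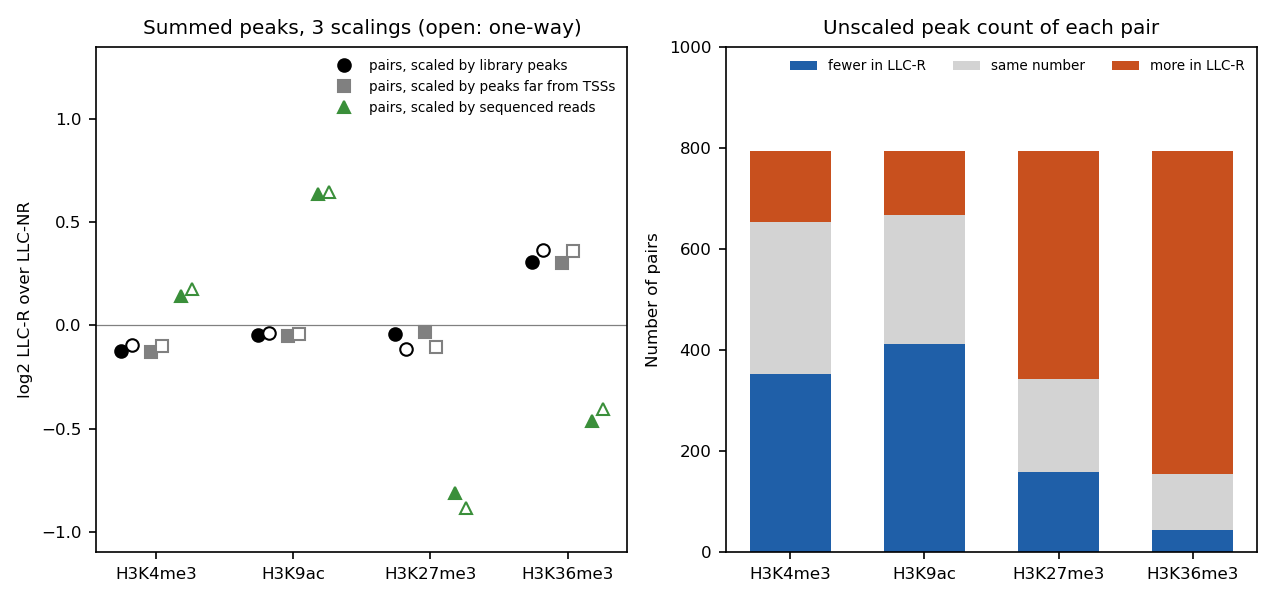
Left, log2 ratio of LLC-R over LLC-NR of the peaks summed over pairs (filled) and one-way promoters (open), scaled by library peaks (black), by windows far from TSSs (grey) or by uniquely mapped reads (green). Right, number of pairs with fewer, the same or more peaks in LLC-R, unscaled. The sign for H3K4me3, H3K9ac and H3K36me3 changes with read scaling, and pairs and one-way promoters lie side by side under each scaling.

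Without scaling, 353 pairs held fewer H3K4me3 peaks in LLC-R, 140 more and the others the same number. For H3K9ac 412 held fewer and 127 more, for H3K27me3 159 fewer and 450 more, and for H3K36me3 45 fewer and 639 more. A change of 2-fold after scaling by library peaks, with 0.5 peak added to each number, was rare. For H3K4me3, 8 pairs were 2-fold lower and 2 higher, where 1.08% and 0.597% of all 8875 regions were. For H3K9ac 12 pairs were lower and 2 higher (2.75% and 1.65% of all regions), and for H3K36me3 120 were higher and 12 lower (18.5% and 1.57%). For H3K27me3, 38 pairs (4.79%) were higher and 19 (2.39%) lower, where 3.01% and 1.68% of all regions were. The pairs called for H3K4me3 made up 1.01% and 0.252% of all pairs, and for H3K9ac 1.51% and 0.252%, at or below the shares over all regions. Only for H3K27me3 were both shares of pairs above those of all regions, which include the pairs. No interval was computed for these shares. Pairs held a median of 3 H3K27me3 peaks in LLC-NR, so that few peaks make a 2-fold change. With 1 peak added in place of 0.5, the 38 pairs became 17 and the 120 pairs of H3K36me3 became 76. In H3K4me3 and H3K9ac 3 pairs each were then lower. The shares of all regions with 1 peak added are not given. The median log2 ratios over pairs were 0.00, -0.08, -0.04 and 0.21 in the order of the marks above, against 0.00, 0.12, -0.09 and 0.21 over all regions, and they take few values because counts are whole. Numbers of a pair in both lines were related with a Spearman correlation of 0.34 to 0.38 (n = 794), as in one-way promoters (0.33 to 0.44).

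In H3K4me3, 4 pairs held 3 more peaks in LLC-R, the largest such difference, and the 3 with the highest H3K9ac difference are given. Spcs2/Xrra1, which includes a signal peptidase subunit, went from 5 to 8 peaks, with H3K9ac at 5 in both lines. Rpl36al/Mgat2, a ribosomal protein gene beside an N-glycan transferase, went from 4 to 7, with 4 H3K9ac and 4 H3K27me3 peaks in each line. Hist1h2ba/Hist1h2aa, testis-type histone genes, went from 2 to 5, with H3K9ac at 4 and 3. The higher H3K4me3 number in these pairs had no counterpart in H3K9ac.

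The largest difference in the other direction was 4 peaks, in 5 pairs. AA415398/Foxj3, with a forkhead factor on the right, went from 11 H3K4me3 peaks, the most of any pair, to 7, with H3K9ac at 8 and 7. Fbxo44/Fbxo2, a pair of F-box genes, went from 9 to 5 with H3K9ac at 8 and 6. Sncg/Mmrn2, γ-synuclein beside an endothelial matrix protein, went from 7 to 3 with H3K9ac at 8 and 6. These 3 pairs had TSSs more than 500 bp apart. Hist1h2ak/Hist1h2bn and Hist1h2bf/Hist1h2ad, with distances of 216 and 185 bp, went from 5 to 1 H3K4me3 peaks, with H3K9ac at 4 and 3 in the former and 3 in both lines in the latter. The largest changes of the other marks, chosen after their values were seen, were 2 to 9 H3K27me3 peaks in Urod/Hectd3 and 1 to 8 H3K36me3 peaks in Zbtb25/Zbtb1.

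The highest H3K4me3 density over both lines was found in BC013529/Ppil4 and 6530403G13Rik/Ppil4, overlapping regions that share the cyclophilin gene Ppil4, with 7 and 7 and with 6 and 7 peaks in about 1.1 kb. Oas1c/Oas1b, 2′-5′-oligoadenylate synthetase genes without a CpG-rich promoter, held 7 and 7. At the other end, Gm10598/Gm10597, Gm10594/4933409K07Rik and Gm11048/Defa3 held no peak of any mark in either line. The first 2 of these have the same distance between the TSSs, 387 bp. All were taken by position from the 6 pairs without a peak in any library. Only uniquely mapped reads entered the peaks, so absent marks and sequence without uniquely mapped reads cannot be told apart here.

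The sides were most unequal in H3K4me3 at Erc1/3110021A11Rik, with 3 peaks on the Erc1 side and 1 on the other in each line. Efnb2/4921522P10Rik, with the vessel ligand ephrin-B2 on the left, also had 3 and 1 in both lines. Hspa1a/Hspa1l, heat shock protein genes of high similarity, had 0 on the Hspa1a side and 2 on the other in both lines. The Hspa1a side held 0 peaks of H3K27me3 and H3K36me3 too, and 1 H3K9ac peak in LLC-NR and 0 in LLC-R. Only uniquely mapped reads entered the peaks, which makes the numbers of that side uncertain. The 3 pairs with the most H3K27me3 per kb, chosen after their values were seen, were 1700101I19Rik/Fam123c with 6 and 5 peaks, Sdccag3/Pmpca with 6 and 5, and Kctd19/Lrrc36 with 6 and 6. Sdccag3/Pmpca, which includes a mitochondrial processing peptidase subunit, held 5 H3K4me3 peaks in each line beside them.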

How the data were processed

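Reads of MNase ChIP-seq libraries for H3K4me3, H3K9ac, H3K27me3 and H3K36me3, 1 per line and mark, were mapped by the authors to mm9 with Bowtie (0.12.7, up to 2 mismatches). Only uniquely mapped reads were kept, and peaks were called in each library with GeneTrack, whose settings are not given in the sources used here. The deposited values are chromosome, start and end of each peak in bp, with no count, height or strand, and columns of unused samples numbered 0.

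Midpoints were counted in regions built from GENCODE vM1 on NCBIM37, the assembly of mm9, with the TSS shared by most transcripts of a gene. The members and gene lists were chosen with earlier results of these data known. Named were textbook pairs found, pairs with a listed gene of the study, the 3 pairs with the most extreme H3K4me3 difference in each direction, the 3 with the most and the fewest H3K4me3 peaks per kb, and the 3 with the largest side difference, ties being ordered by H3K9ac and then by position. One pair with a listed gene is not reported here by name. Textbook partners were also matched through RefSeq synonyms. Levels are means ± SD over regions. Shares have exact Clopper-Pearson 95% intervals and sums exact Poisson-based ones, for counting error only. With 1 library per group no test was run. Lines were compared per library peaks, and 2-fold changes with a pseudocount of 0.5 peak. Alternatives covered the scaling, region, TSS, distance, one-way rule, overlap and chromosomes. Counting and pairing were tested on simulated data. The tools were NumPy 2.4.6, pandas 2.3.3 and SciPy 1.17.1 under Python 3.11.15, with Matplotlib 3.10.9 for figures.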

Additional observations from a re-analysis of the deposited data

Results flagged for a closer look

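The H3K4me3 number on a pair side, 500 bp into each gene, lay above the downstream side of one-way promoters by 0.0666 peaks in LLC-NR and below it in LLC-R (-0.0194 peaks). The opposite signs in both lines were what marked this value, each line has 1 library, and the difference between the lines was not tested. Both values are small beside the SD of 0.620 to 0.669 peaks over pair sides.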

How the results depend on the processing

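No paired analysis was possible because each line has 1 library per mark and the labels carry no replicate numbers. Of 168 values recomputed under alternatives, 136 kept their sign and stayed within the 95% counting interval of the reported value (for numbers of pairs, within 1.5 times), 25 moved farther and 7 changed sign, and the cause was not tested. With 250 bp on each side, the pair minus one-way difference was 0.0325 (H3K4me3, LLC-NR), -0.0790 (H3K4me3, LLC-R), 0.0279 (H3K9ac, LLC-R), -0.00247 (H3K36me3, LLC-NR) and -0.0272 peaks per kb (H3K36me3, LLC-R), and the log2 ratio of H3K36me3 between the lines was 0.42. For H3K27me3 the pair minus one-way difference lay between -0.621 and -0.507 in LLC-NR and between -0.520 and -0.406 in LLC-R under the alternatives run. Some values near 0 changed by more than 1.5 times within their interval: log2 ratios of H3K9ac (-0.10) and H3K27me3 (-0.09) with 250 bp on each side, that of H3K27me3 when counting overlap (-0.02) and in pairs above 100 and up to 200 bp (-0.07), the H3K9ac difference in LLC-NR under the first and last of these (0.157 and 0.166), the differences in LLC-R without the extension (0.0915 for H3K4me3 and 0.199 for H3K36me3), and H3K36me3 from 1 to 5 kb into the genes in LLC-R (0.0482). One-way regions without the upstream extension gave 0.231 for H3K36me3 in LLC-NR. Only pairs above 100 and up to 200 bp, chosen after seeing the data, gave -0.000124 for H3K36me3 in LLC-R and a log2 ratio between the lines of 0.22. Scaled by uniquely mapped reads, log2 ratios of pairs were 0.14 (H3K4me3), 0.64 (H3K9ac), -0.81 (H3K27me3) and -0.46 (H3K36me3). With a pseudocount of 1 peak, 3 pairs were 2-fold lower in H3K4me3 and 3 in H3K9ac, and 17 were higher in H3K27me3 and 76 in H3K36me3. Counting overlap, gaps without a peak made up 25.3% and 35.4% (H3K4me3, LLC-NR and LLC-R), 36.02% and 46.7% (H3K9ac), 51.4% and 38.3% (H3K27me3) and 69.0% and 51.1% (H3K36me3), and sides were equal in 45.7% and 39.0% for H3K4me3 and in 41.6% for H3K9ac in LLC-R. Sides of 250 bp were equal in 73.9% and 70.5% (H3K4me3) and 73.8% and 67.5% (H3K9ac). Leaving out regions without any peak, also chosen after seeing the data, moved no value beyond its interval. Peaks carry no height, so strong and weak nucleosomes count alike and depth is seen only through the number of peaks.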
